A study of Caenorhabditis elegans with 12 samples.

Results

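A set of 10 genes of the nematode Caenorhabditis elegans that act when the animal replaces its cuticle was followed in 12 expression arrays: mlt-7, mlt-8, mlt-9, mlt-10, mlt-11, noah-1, noah-2, nas-36, nas-37 and bli-5. They were chosen by name, from the probe sets that carry only that gene symbol in the platform annotation, and each gene is represented by its brightest probe set on average across the 12 arrays. All 10 genes were found, with 17 probe sets in total, among 17118 genes and 22548 probe sets measured. The arrays fall into 4 groups of 3: MT KO with Cd, wild type with Cd, MT KO without Cd and wild type without Cd. MT KO carries the genotype mtl-1,mtl-2(zs1) in the N2 (Bristol) strain and so lacks both metallothionein genes, and wild type is N2 (Bristol). Cd was present at 30 µM from hatching until harvest. All animals were grown from synchronised first-stage larvae at 20 °C on Escherichia coli OP50 and harvested whole as L4 larvae, the last larval stage. The labels give the stage but no hour within it, and they number arrays 1 to 3 without saying whether these came from separate cultures, so the p-values measure the spread between arrays, which may be technical.

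A nematode grows between larval stages by building a new cuticle under the old one and then shedding the old one. The epidermis secretes a temporary apical matrix, then collagens that peroxidases cross-link, and proteases loosen the old cuticle while protease inhibitors restrain them. Transcripts of many of these genes rise and fall once in every larval stage, each in its own phase, under nuclear receptors such as NHR-23. Metallothioneins are small cysteine-rich proteins that bind Cd and other metals, and the study compared wild-type and knockout animals raised with or without Cd.

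Values are log2 GCRMA values, on which a difference of 1 is a doubling, and they are not per transcript length, so levels are compared between groups and not between genes. A probe set was called changed where its limma p-value was under 0.05 after Benjamini-Hochberg adjustment across all 22548 probe sets. Arrays of one group correlated at r between 0.991 and 0.997. The strain labels were borne out by mtl-1, at 4.02 ± 0.22 in MT KO with Cd and 9.85 ± 0.38 in wild type with Cd (SD, n = 3 each), and by the brightest mtl-2 probe set, at 3.62 ± 0.01 in MT KO with Cd and 11.43 ± 0.15 in wild type with Cd. The Cd label was borne out in wild type by cdr-1, a Cd-responsive gene, at 10.51 ± 0.16 with Cd and 3.73 ± 0.31 without Cd. In MT KO cdr-1 was at 10.10 ± 0.17 with Cd and 7.83 ± 0.06 without Cd. It was thus higher in MT KO without Cd than in wild type without Cd, and the reason was not tested. Control probe sets for the 3′ and 5′ ends of GAPDH and actin give a 3′ minus 5′ log2 signal, which is larger in degraded RNA. It ranged between 0.74 and 1.07 for MT KO with Cd, 1.03 and 1.22 for wild type with Cd, 1.27 and 1.48 for MT KO without Cd, and 1.28 and 2.81 for wild type without Cd. The highest value belongs to wild type without Cd replicate 1. In each strain all arrays with Cd lay below all arrays without Cd. Fits with this signal as a covariate therefore cannot fully separate it from Cd.

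Calls among the moulting genes were made in the comparisons that hold the MT KO with Cd arrays. In MT KO, 5 of the 10 genes fell with Cd and 1 rose, against 11% of all probe sets lower (2472 of 22548) and 11.5% higher. The same 6 genes differed between MT KO with Cd and wild type with Cd, 5 lower and 1 higher, against 4.94% of all probe sets lower and 3.62% higher; these comparisons share the MT KO with Cd arrays. The genes that fell were mlt-8, mlt-11, noah-1, noah-2 and nas-37, and the gene that rose was mlt-7. The median difference over the 10 genes was -0.39 for Cd in MT KO and -0.79 for MT KO minus wild type with Cd, while the median over all probe sets was 0.02 in both.

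In wild type, limma called none of the 10 genes changed with Cd, against 5.50% of probe sets lower and 6.44% higher. At an unadjusted p under 0.05, 2 of the 10 passed, mlt-10 and mlt-11, against 5267 of all 22548 probe sets, a similar share. Without Cd, limma called none between MT KO and wild type, against 0.705% of probe sets lower and 0.940% higher. None of the 10 passed at an unadjusted p under 0.05 there, against 3364 of all 22548 probe sets. The median difference over the 10 genes was -0.08 for Cd in wild type and -0.19 for MT KO minus wild type without Cd. The wild-type count of 0 was 1 under 7 other settings, 2 with dim probe sets left out, and 1 in 4 of the 12 fits that leave out 1 array, as described with mlt-11, mlt-10 and noah-1.

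No moulting gene was called between the strains without Cd. MT KO minus wild type ranged from -0.50 for mlt-9 (limma adjusted p = 0.577) to 0.11 for noah-2 (limma adjusted p = 0.9). Between these lay nas-37 at -0.36, mlt-7 and bli-5 at -0.23 each, noah-1 at -0.20, mlt-8 at -0.19, nas-36 at -0.16, mlt-11 at -0.10 and mlt-10 at 0.10. None was called under any alternative run.

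**Figure D1:**
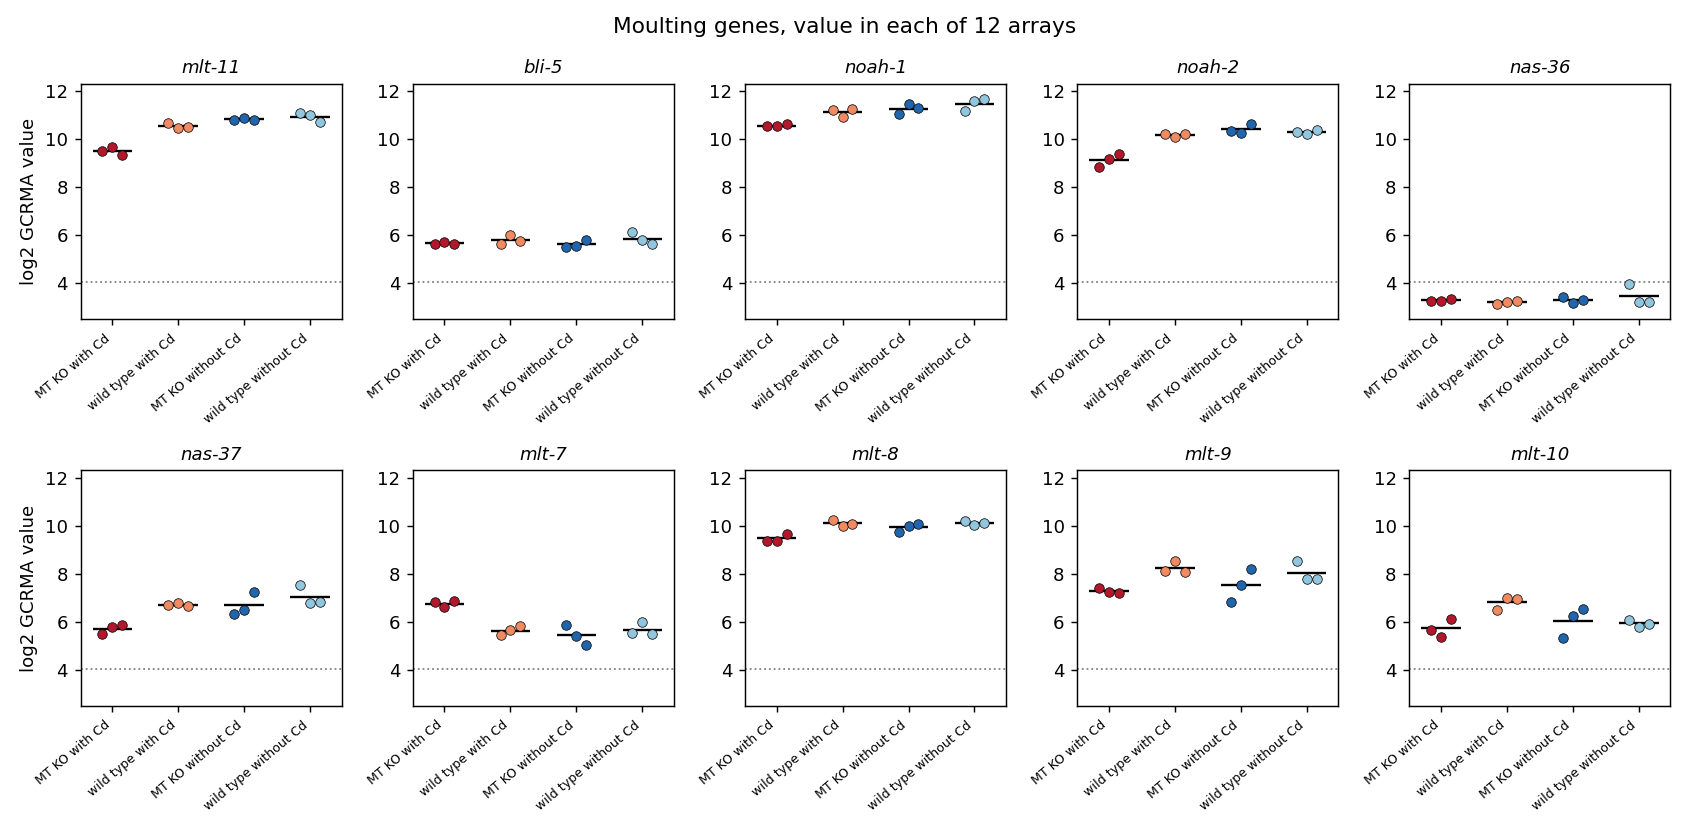
Log2 GCRMA value (vertical axis) of each moulting gene in each of the 12 arrays, by group; points are arrays, bars are group means and the dotted line is the median of all values, 4.03. For mlt-11, noah-1, noah-2, nas-37 and mlt-8 the MT KO with Cd points lie below those of every other group, for mlt-7 above them, and nas-36 lies under the dotted line in all arrays.

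The protease inhibitor genes parted. The gene mlt-11 (probe set 171847_s_at, chromosome V) encodes a secreted protein with Kunitz-type protease inhibitor domains that is needed to complete moults, and it had the largest fall of the 10 in MT KO. It read 9.48, 9.64 and 9.34 in MT KO with Cd, against 10.80, 10.88 and 10.80 in MT KO without Cd. In wild type it read 10.67, 10.47 and 10.52 with Cd, against 11.07, 11.01 and 10.70 without Cd. The MT KO with Cd arrays are thus the lowest of the 12, and in each strain the arrays with Cd lie below those without. The fall in MT KO was 1.34 on the log2 scale (SE 0.11), or 2.53-fold, with a limma adjusted p of 2.61e-05, and MT KO with Cd was lower than wild type with Cd by a log2 difference of -1.06 (SE 0.11, limma adjusted p = 0.000625). The wild-type difference of -0.38 (SE 0.11) just missed the threshold, with a limma adjusted p of 0.0500422.

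That wild-type call of mlt-11 turned on small choices. Its limma adjusted p lay between 0.00687 and 0.506 over 21 alternatives, 8 of which called it lower, among them the median-centred values (0.0399). Leaving out single arrays also called it: the limma adjusted p was 0.00964 without wild type without Cd replicate 3, 0.0453 without MT KO with Cd replicate 2 and 0.0463 without MT KO with Cd replicate 3. The difference was -0.16 once the 3′ minus 5′ signal was a covariate.

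The gene bli-5 (177581_at, chromosome III) encodes another Kunitz-type protein, loss of which blisters the cuticle and disturbs moulting. It read 5.63, 5.71 and 5.62 in MT KO with Cd, against 5.52, 5.54 and 5.78 in MT KO without Cd, and the groups overlap. In wild type it read 5.64, 6.02 and 5.74 with Cd, against 6.12, 5.78 and 5.63 without Cd, and these overlap too. The Cd difference was 0.04 in MT KO (95% interval -0.27 to 0.34, limma adjusted p = 0.897) and -0.04 in wild type (95% interval -0.34 to 0.26).

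The matrix genes noah-1 and noah-2 both fell in MT KO. They encode zona pellucida domain proteins of the temporary apical matrix that covers the epidermis before the new cuticle is laid down. The gene noah-2 (181136_s_at, chromosome IV) read 8.84, 9.18 and 9.39 in MT KO with Cd, against 10.32, 10.24 and 10.64 in MT KO without Cd. Wild type read 10.19, 10.10 and 10.19 with Cd, against 10.28, 10.19 and 10.38 without Cd. Every MT KO with Cd array is lower than all 9 others, whereas the wild-type groups overlap. The fall was 1.26 on the log2 scale (SE 0.14, 2.40-fold, limma adjusted p = 0.00016) in MT KO, and the difference was -0.12 (SE 0.14, limma adjusted p = 0.761) in wild type.

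The gene noah-1 (174240_at, chromosome I) read 10.55, 10.52 and 10.61 in MT KO with Cd, against 11.03, 11.44 and 11.29 in MT KO without Cd. The wild-type arrays read 11.22, 10.93 and 11.25 with Cd, against 11.16, 11.56 and 11.64 without Cd. The MT KO groups are apart and the wild-type groups overlap. The fall in MT KO was 0.70 on the log2 scale (SE 0.15, 1.62-fold, limma adjusted p = 0.00691), and the wild-type difference was -0.32 (SE 0.15, limma adjusted p = 0.227). That wild-type difference was called with array weights, at -0.47 and a limma adjusted p of 0.035. Adding the 3′ minus 5′ covariate gave -0.62 and a limma adjusted p of 0.0337, the lowest of a range that reached 0.564.

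With Cd, noah-2 was lower in MT KO than in wild type by a log2 difference of -1.02 (SE 0.14, limma adjusted p = 0.00232), and noah-1 by -0.58 (SE 0.15, limma adjusted p = 0.0396). The noah-1 strain call lay near the threshold. Of the 12 fits that leave out 1 array, 7 lost it, while the difference stayed between -0.68 and -0.52 over the 12. The limma adjusted p was 0.105, 0.109 and 0.0765 with MT KO with Cd replicate 1, 2 or 3 left out, 0.133 and 0.122 with wild type with Cd replicate 1 or 3 left out, 0.0565 without wild type without Cd replicate 2 and 0.0556 without MT KO without Cd replicate 3. Median centring gave 0.0500337, and over all its alternatives it ran from 0.00169 to 0.133. The second noah-1 probe set (183775_at) had larger differences, -1.35 (SE 0.13, limma adjusted p = 8.49e-05) for Cd in MT KO and -1.12 (SE 0.13, limma adjusted p = 0.00128) for MT KO minus wild type with Cd.

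Of the proteases, nas-37 fell and nas-36 could not be read. Both encode astacin-family zinc metalloproteases that act when the old cuticle is shed. The gene nas-37 (190032_s_at, chromosome X) read 5.49, 5.77 and 5.89 in MT KO with Cd, against 6.30, 6.51 and 7.25 in MT KO without Cd. Its wild-type values were 6.68, 6.787 and 6.66 with Cd, against 7.55, 6.790 and 6.81 without Cd. The wild-type arrays with Cd thus all lie below those without, by a very small margin. The MT KO with Cd arrays are the lowest of the 12, the MT KO without Cd arrays are spread, and the highest value is that of wild type without Cd replicate 1. The fall in MT KO was 0.97 on the log2 scale (SE 0.26, 1.96-fold, limma adjusted p = 0.0245), and the wild-type difference was -0.34 (SE 0.26, limma adjusted p = 0.567). MT KO minus wild type with Cd was -0.996 (SE 0.26, limma adjusted p = 0.0471).

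These nas-37 calls were fragile. For Cd in MT KO the limma adjusted p was 0.065 without MT KO without Cd replicate 3, where the difference was -0.69, and 0.0846 and 0.0574 without MT KO with Cd replicates 1 and 2. It was 0.0684 in a fit of the MT KO arrays alone and 0.0767 with the 3′ minus 5′ covariate, and ran from 0.0047 to 0.0846 over all alternatives. The strain difference with Cd was lost in 9 of the 12 fits that leave out 1 array, all but those without wild type without Cd replicate 1, MT KO without Cd replicate 1 and MT KO without Cd replicate 3, with limma adjusted p between 0.0168 and 0.147 over the 12. It was also lost with quantile normalization (0.0554) and the 3′ minus 5′ covariate (0.0594), against a range of 0.00846 to 0.147 over all its alternatives.

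The gene nas-36 (189987_s_at, chromosome I) averaged 3.29 ± 0.05 in MT KO and 3.21 ± 0.06 in wild type with Cd, and 3.30 ± 0.13 in MT KO and 3.46 ± 0.43 in wild type without Cd (SD, n = 3 each). All of these lie below the median of all values, 4.03, where a change may not be detectable on these arrays. Its highest array, 3.95, was wild type without Cd replicate 1, and the other 11 ran from 3.15 to 3.43.

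The peroxidase gene moved the other way. The gene mlt-7 (188716_s_at, chromosome II) encodes a haem peroxidase that acts with the dual oxidase BLI-3 in cross-linking cuticle collagens. It read 6.81, 6.60 and 6.85 in MT KO with Cd, against 5.85, 5.42 and 5.04 in MT KO without Cd. Wild-type arrays read 5.44, 5.64 and 5.82 with Cd, against 5.54, 5.97 and 5.51 without Cd. The MT KO with Cd arrays are the highest of the 12, and the wild-type groups overlap. The rise in MT KO was 1.32 on the log2 scale (SE 0.20, 2.49-fold, limma adjusted p = 0.0012), the wild-type difference was -0.04 (95% interval -0.49 to 0.42), and MT KO minus wild type with Cd was 1.12 (SE 0.20, limma adjusted p = 0.00871). The second mlt-7 probe set (172950_at) lay below the median of all values in every array and differed by 0.11 (SE 0.04, limma adjusted p = 0.0752).

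The remaining mlt genes have less well understood products, and their transcripts differed in how stable the measurement was. The gene mlt-8 (182327_at, chromosome II) read 9.38, 9.38 and 9.66 in MT KO with Cd, against 9.74, 9.99 and 10.06 in MT KO without Cd. In wild type it read 10.22, 10.005 and 10.07 with Cd, against 10.18, 10.03 and 10.13 without Cd. The MT KO with Cd arrays are below all others, by a small margin, and the wild-type groups overlap. The fall in MT KO was 0.46 on the log2 scale (SE 0.10, 1.37-fold, limma adjusted p = 0.01), and MT KO minus wild type with Cd was -0.63 (SE 0.10, limma adjusted p = 0.00543). Fitted to the 6 MT KO arrays alone, the Cd difference had a limma adjusted p of 0.0552, against a range of 0.00233 to 0.0552 over its alternatives.

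The gene mlt-10 (181793_at, chromosome II) founded a family of proline-rich secreted proteins needed for moulting, and only 4 protein-coding genes of the RefSeq table stand between it and mlt-8. It read 5.66, 5.37 and 6.13 in MT KO with Cd, against 5.33, 6.25 and 6.54 in MT KO without Cd. Wild-type values were 6.49, 7.004 and 6.93 with Cd, against 6.09, 5.80 and 5.91 without Cd. The MT KO groups overlap, while the wild-type arrays with Cd lie above those without and above all 3 MT KO arrays with Cd. The wild-type difference was 0.88 (SE 0.30, limma adjusted p = 0.104) and MT KO minus wild type with Cd was -1.09 (SE 0.30, limma adjusted p = 0.0598), neither past the threshold.

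MT KO without Cd replicate 1 widened the spread of mlt-10. Without that array the limma adjusted p was 0.0281 for Cd in wild type and 0.0134 for MT KO minus wild type with Cd. The second of these was also under the threshold without MT KO without Cd replicate 3 (0.0437) and without MT KO with Cd replicate 3 (0.047). Over all alternatives it ran from 0.0271 to 0.382 for Cd in wild type and from 0.0119 to 0.18 for MT KO minus wild type with Cd.

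The gene mlt-9 (194238_x_at, chromosome X) read 7.40, 7.24 and 7.20 in MT KO with Cd, against 6.83, 7.53 and 8.21 in MT KO without Cd. Its values in wild type were 8.10, 8.52 and 8.07 with Cd, against 8.53, 7.78 and 7.78 without Cd. The MT KO without Cd arrays span more than those of any other group and overlap MT KO with Cd, whereas the arrays with Cd do not overlap between the strains. MT KO minus wild type with Cd was -0.95 (SE 0.32, limma adjusted p = 0.121), and without MT KO without Cd replicate 1 its limma adjusted p was 0.0493, within a range of 0.0189 to 0.306 over all alternatives.

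**Figure D2:**
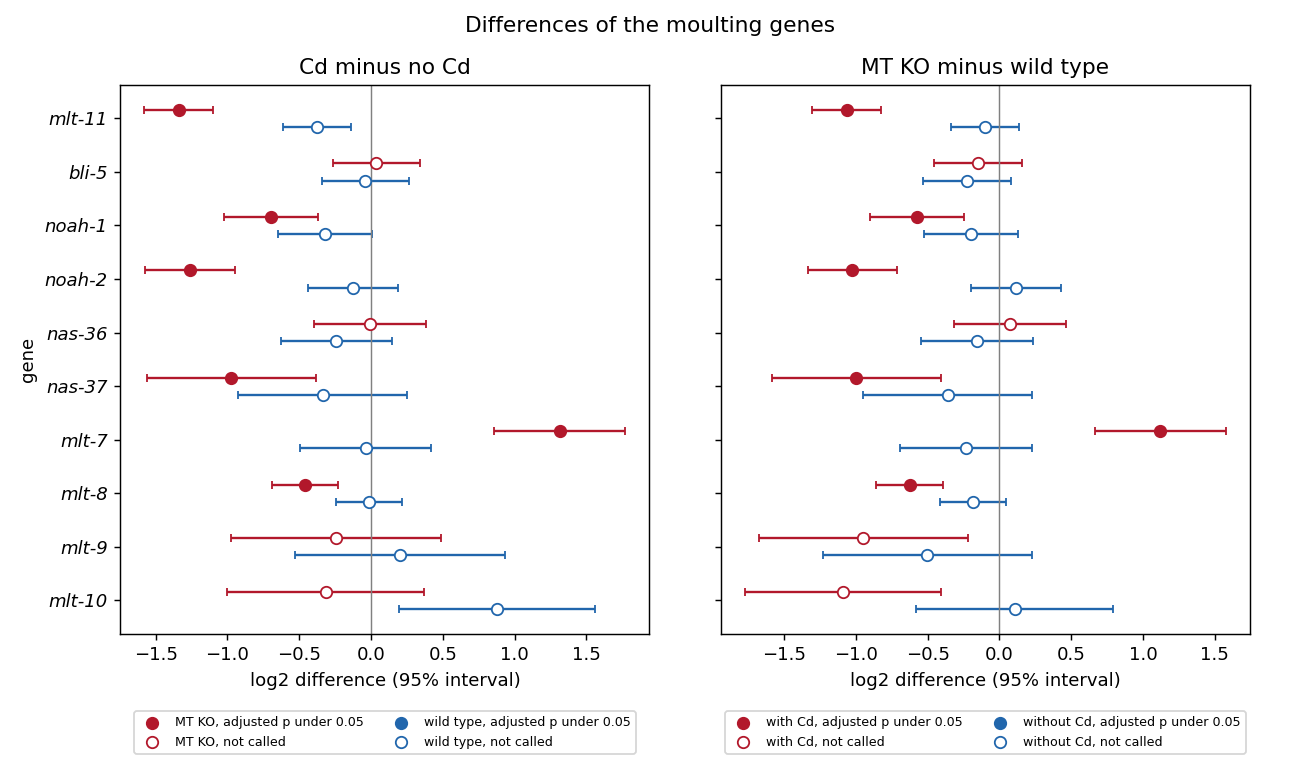
Log2 differences with 95% intervals from the limma fit for the 10 moulting genes: Cd minus no Cd in MT KO (red) and in wild type (blue) on the left, and MT KO minus wild type with Cd (red) and without Cd (blue) on the right. Filled points passed an adjusted p of 0.05; 6 red points are filled in each panel and no blue one, and mlt-7 alone of the filled points lies right of 0.

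Whether the Cd response itself differed between the strains was tested with the interaction, the Cd response of MT KO minus that of wild type. It was higher for 1 of the 10 genes and lower for 2, against 2.09% of all probe sets higher and 3.36% lower. At an unadjusted p under 0.05, 5 of the 10 passed, against 3816 of all 22548 probe sets. The difference of response was -0.96 for mlt-11 (SE 0.15, limma adjusted p = 0.00604), -1.14 for noah-2 (SE 0.20, limma adjusted p = 0.0102) and 1.35 for mlt-7 (SE 0.29, limma adjusted p = 0.0265). For mlt-11 and noah-2 each of the alternatives run kept the call, with limma adjusted p up to 0.0205 and 0.0317.

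The mlt-7 interaction was lost in 6 of the 12 fits that leave out 1 array. Its limma adjusted p was 0.062 and 0.0548 with MT KO with Cd replicate 1 or 3 left out, 0.0693 and 0.0559 with wild type with Cd replicate 1 or 2 left out, 0.0656 without MT KO without Cd replicate 2 and 0.0595 without wild type without Cd replicate 2. Over all alternatives it ran from 0.00465 to 0.0693. For the other genes the interaction was not called: noah-1 had -0.38 (95% interval -0.84 to 0.09), nas-37 -0.64 (95% interval -1.47 to 0.20), mlt-8 -0.44 (95% interval -0.77 to -0.12, called with array weights at a limma adjusted p of 0.0459) and mlt-10 -1.19 (95% interval -2.16 to -0.23). With the mean of its probe sets the noah-1 interaction was -0.66, with a limma adjusted p of 0.038, against up to 0.672 under other alternatives. So for noah-1, nas-37 and mlt-8, a call in MT KO and none in wild type does not show that the strains respond differently. Without MT KO without Cd replicate 1 the mlt-10 interaction was -1.55, with a limma adjusted p of 0.0224 against a range of 0.0224 to 0.338 over its alternatives.

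Several genes were read by more than 1 probe set, which gives a second look at the same transcript from the same RNA. The 3 bright mlt-11 probe sets 171847_s_at, 194187_x_at and 194086_at differed with Cd by -1.34, -1.16 and -1.45 in MT KO, all called lower, and by -0.38, -0.38 and -0.45 in wild type. In wild type the limma adjusted p was 0.0336 for 194187_x_at and 0.0487 for 194086_at, so both were called lower there while 171847_s_at was not. The fourth mlt-11 probe set averaged 2.17 over the arrays, in the range of background, and moved by 0.03 in MT KO. The 2 mlt-9 probe sets correlated at r = 0.93 over the 12 arrays and the 2 mlt-10 probe sets at r = 0.81. The 2 noah-1 probe sets correlated at r = 0.89, but differed in size: the interaction of the second was -0.94 (SE 0.19, limma adjusted p = 0.0207), a call that the brighter one did not give.

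**Figure D3:**
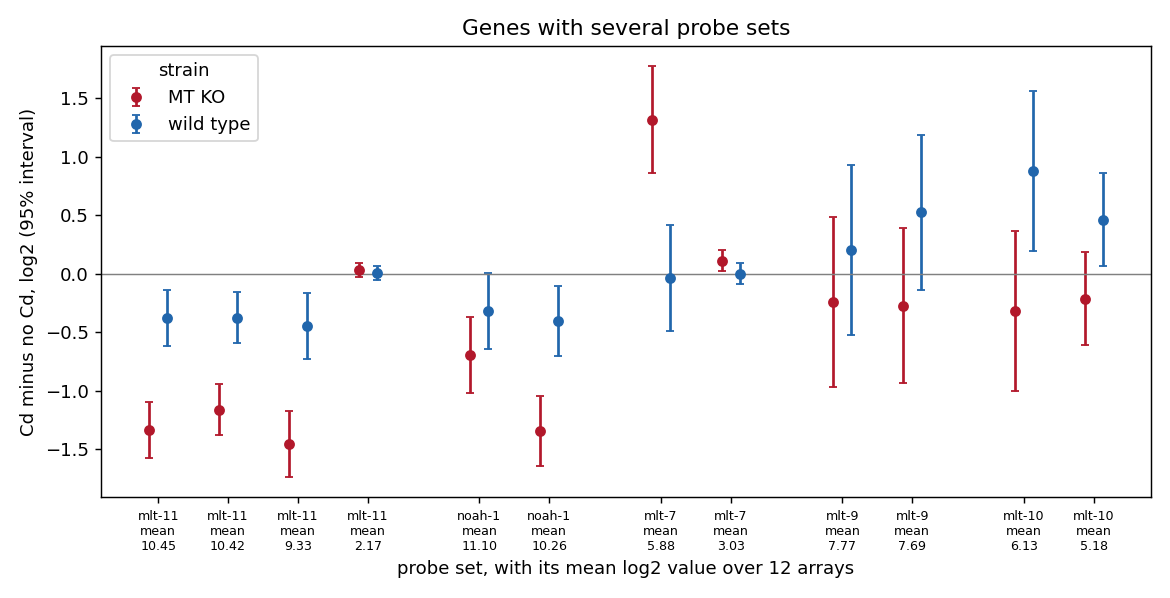
Cd minus no Cd on the log2 scale, with 95% intervals, for each probe set of the 5 genes that have several, in MT KO (red) and wild type (blue). The number under each name is the mean log2 value over 12 arrays; the bright probe sets of mlt-11 and noah-1 lie below 0 in MT KO, and the probe sets with means of 2.17 and 3.03 stay near 0.

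The values of the genes that fell in MT KO tracked each other across the arrays. Among mlt-8, mlt-11, noah-1, noah-2 and nas-37 the 10 pairwise correlations over the 12 arrays lay between 0.71 and 0.91, and mlt-7 correlated with these 5 genes at r between -0.93 and -0.78. These genes were picked for their calls in MT KO, and the arrays share the 4 group means. The correlations over the 12 arrays largely follow from that choice and those means. After each group's mean was subtracted the 10 pairs ran from -0.31 to 0.64, and mlt-7 with the 5 genes from -0.66 to -0.09. In those residuals nas-37, mlt-9 and bli-5 stayed together, with r of 0.85 for mlt-9 and nas-37, 0.78 for mlt-9 and bli-5 and 0.77 for nas-37 and bli-5. All 3 have their highest value in wild type without Cd replicate 1, the array with the largest 3′ minus 5′ signal. Within MT KO without Cd all 3 were lowest in replicate 1 and highest in replicate 3. There mlt-9 went from 6.83 to 8.21, nas-37 from 6.30 to 7.25 and bli-5 from 5.52 to 5.78. The part of any of these arrays in the correlation was not tested.

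**Figure D4:**
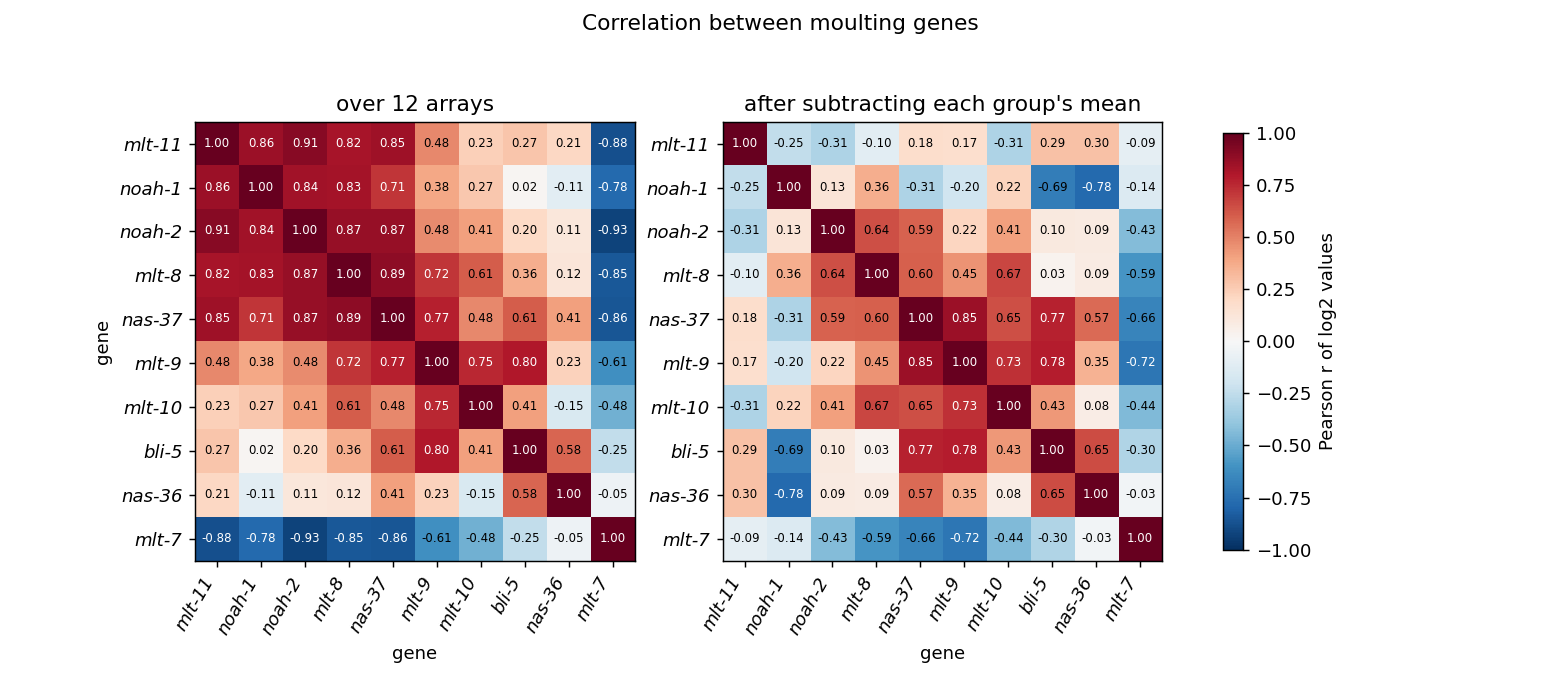
Pearson correlation of log2 values between each pair of moulting genes over 12 arrays (left) and after each group's mean was subtracted (right); red is positive and blue negative. On the left mlt-11, noah-1, noah-2, mlt-8 and nas-37 form a red block with mlt-7 blue against it, and on the right the largest positive value is 0.85, between mlt-9 and nas-37.

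Outside the 10, the genes most like each one were taken from 3890 probe sets with 1 symbol, a mean above the median of all values and an SD over the arrays of at least 0.3. Likeness is Pearson's r over the 12 arrays. The closest to mlt-11 were peb-1, which encodes a DNA-binding protein of the pharynx, F42A9.6 (r = 0.99 each) and B0393.4 (0.98). The closest to noah-2 were the kinase gene frk-1 (0.99), T27A3.5 (0.97) and the proteasome subunit gene rpn-6.2 (0.97). For noah-1 they were ptr-10, a patched-related gene (0.96), lpr-5, a lipocalin-related gene (0.94), and ruvb-2 (0.94). For nas-37 they were subs-4 (0.98), C07E3.10 (0.98) and daf-6, another patched-related gene (0.97).

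The closest genes to mlt-7 were abu-8 (0.97), nspb-6 (0.97) and pqn-36 (0.96); abu-8 and pqn-36 belong to families rich in glutamine and asparagine. In MT KO these differed with Cd by 2.09, 1.52 and 1.33 on the log2 scale, and in wild type by 0.04, -0.10 and -0.15. The closest to mlt-8 were T12E12.6, mina-1 and the collagen gene col-79 (0.96 each). The closest to mlt-9 were K08E7.5 (0.98), F33D4.6 (0.97) and the collagen gene col-104 (0.97), and to mlt-10 F33D4.6 (0.94), the collagen gene col-63 (0.93) and E01G4.6 (0.92). For bli-5 they were elf-1 (0.93), gtnt-53 (0.84) and F52F10.2 (0.84), and for the dim nas-36 cks-1 (0.80), faah-4 (0.73) and H12D21.10 (0.72).

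The wider moulting machinery was described with 10 further gene lists, each gene by its brightest probe set. The counts of these lists, and of the tissue markers after them, stand against 11% of all probe sets lower and 11.5% higher with Cd in MT KO, and 5.50% lower and 6.44% higher in wild type. A list with 1 call in a given direction is near those shares. Among 14 regulators of the moult, 4 fell and 2 rose with Cd in MT KO, and none fell and 1 rose in wild type; the shares that rose are near those of all probe sets. In MT KO, nhr-23, the nuclear receptor that drives moulting genes, fell by 0.73 on the log2 scale (SE 0.13, limma adjusted p = 0.00322), and lin-42, the period homologue that sets the moulting rhythm, fell by 0.76. The nuclear receptor gene nhr-25 rose by 0.75 and the zinc finger gene bed-3 by 0.71; bed-3 also rose in wild type, by 0.69. The nhr-25 call was lost in a fit of the MT KO arrays alone (limma adjusted p = 0.0516), and that of bed-3 in a fit of the wild-type arrays alone (0.0516). The 2 further falls, myrf-1 and lin-29, were lost in some fits that leave out 1 array, and the count of falls went down to 2 without MT KO without Cd replicate 2 or MT KO with Cd replicate 1.

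Some genes of the apical matrix were lower with Cd in each strain. Of 21 measured genes of this matrix and the precuticle, 9 fell and 3 rose with Cd in MT KO, and 7 fell and none rose in wild type. The lipocalin gene lpr-1 fell by 1.62 (SE 0.11, limma adjusted p = 1.01e-05) in MT KO and by 0.75 (SE 0.11, limma adjusted p = 0.0018) in wild type. The leucine-rich repeat gene let-4 fell by 1.49 in MT KO and by 0.84 in wild type, and the lipocalin gene lpr-3 by 1.21 in MT KO and by 0.57 in wild type. The leucine-rich repeat gene egg-6 fell by 1.12 in MT KO and by 0.37 in wild type, where the call was lost in 9 of 20 alternatives. The gene let-653, of a matrix protein, fell by 1.03 in MT KO and by 0.67 in wild type. The interaction was called for 3 of the 21, lpr-1, lpr-3 and egg-6, and that of lpr-3 was lost in 8 of 19 alternatives. The median of the list was 0.00 in MT KO and -0.16 in wild type, and 7 of the 21 lay below the median of all values in every group. The wild-type count of 7 was 4 without wild type without Cd replicate 2 and without wild type with Cd replicates 1 or 3.

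Of 12 genes for uptake, kinase signalling and secretion in moulting, 4 fell and none rose in MT KO, and 1 rose in wild type, a share near that of all probe sets. The patched-related gene ptr-4 fell by 0.87 in MT KO, che-14, of the same superfamily, by 1.12, the hedgehog-related gene qua-1 by 1.20, and acn-1, related to angiotensin-converting enzyme, by 0.52. The 1 gene in wild type was lrp-1, the endocytic receptor that takes up sterols, at 0.43, a call lost in 5 of the fits that leave out 1 array. Of 10 mltn genes, the relatives of mlt-10, 2 fell in MT KO and none in wild type; these were mltn-12 (-2.19) and mltn-9 (-1.41), and the other 8 lay below the median of all values in every group.

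The cuticle enzymes moved in both directions. Of 15 genes for cross-linking and processing, 5 rose and 3 fell in MT KO, and 4 rose and 1 fell in wild type, the last a share near that of all probe sets. The genes nas-6, nas-7 and nas-38 of this list are counted again among the other astacin genes. Of them, nas-6 and nas-7 rose in MT KO and nas-6 in wild type. The tetraspanin gene tsp-15, a partner of the dual oxidase, rose by 0.86 in MT KO and by 0.91 in wild type. The cathepsin gene cpl-1 fell by 0.83 in MT KO and by 0.84 in wild type, and the collagen prolyl hydroxylase gene dpy-18 fell by 0.75 in MT KO. The cathepsin Z gene cpz-1 rose by 0.59 in MT KO and by 1.23 in wild type, and memo-1, linked to the dual oxidase, by 0.71 in MT KO and by 1.15 in wild type. With the 3′ minus 5′ covariate only 2 rose in wild type, and tsp-15 there had a limma adjusted p of 0.0598. None of 4 other haem peroxidase genes was called by limma in either strain. In each strain 1 of them had an unadjusted p under 0.05, against 7261 of all 22548 probe sets in MT KO and 5267 in wild type.

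No other astacin gene was called lower with Cd. Of 31 measured, 10 rose and none fell with Cd in MT KO, and 5 rose and none fell in wild type, although 20 of the 31 lay below the median of all values in every group. In MT KO nas-9 rose by 1.98 (SE 0.11, limma adjusted p = 2.45e-06), nas-1 by 1.69 (means of 4.33 in MT KO with Cd and 2.64 in MT KO without Cd, the second below the median of all values), nas-6 by 1.58 and nas-11 by 0.73; in wild type nas-9 rose by 1.09, nas-15 by 1.05, nas-11 by 0.58 and nas-32 by 0.28. The genes nas-6, nas-15 and nas-32 were also called higher in the other strain. There nas-6 differed by 0.59 in wild type, and nas-15 and nas-32 by 1.09 and 0.39 in MT KO. Leaving out any wild-type array or adding the 3′ minus 5′ covariate brought the wild-type count to 3, and leaving out dim probe sets brought the MT KO count to 5.

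Collagens of the early phase of cuticle building fell with the matrix genes in MT KO. All 5 measured furrow collagen genes fell with Cd there, in each alternative run. The falls were 1.40 for dpy-3, 1.16 for dpy-2, 1.09 for dpy-7, 1.25 for dpy-9 and 1.28 for dpy-8. Limma called none in wild type, where the list median was -0.13 and up to 1 was called under other settings. There 1 of the 5 had an unadjusted p under 0.05, against 5267 of all 22548 probe sets. The interaction was called for 4 of the 5, and that of dpy-9 was lost in 10 of 19 alternatives. Among 11 collagens of the middle phase 1 fell in MT KO, lon-3, and 1 rose in wild type, dpy-13. The lon-3 call was lost in a fit of the MT KO arrays alone (limma adjusted p = 0.06), and that of dpy-13 in 8 of 20 alternatives. Of 10 measured adult cuticle and yolk genes, 5 fell in MT KO, and 3 fell and 1 rose in wild type. The 1 that rose was rol-1, by 1.65, a call lost in 4 of the fits that leave out 1 array. The yolk genes vit-6 and vit-1 differed by -2.83 and -2.32 in MT KO, and by -3.43 and -2.57 in wild type, and the adult collagen genes bli-2 and bli-1 by -1.80 and -1.73 in MT KO. The part of timing within the L4 stage in the values of the 10 moulting genes was not tested.

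**Figure D5:**
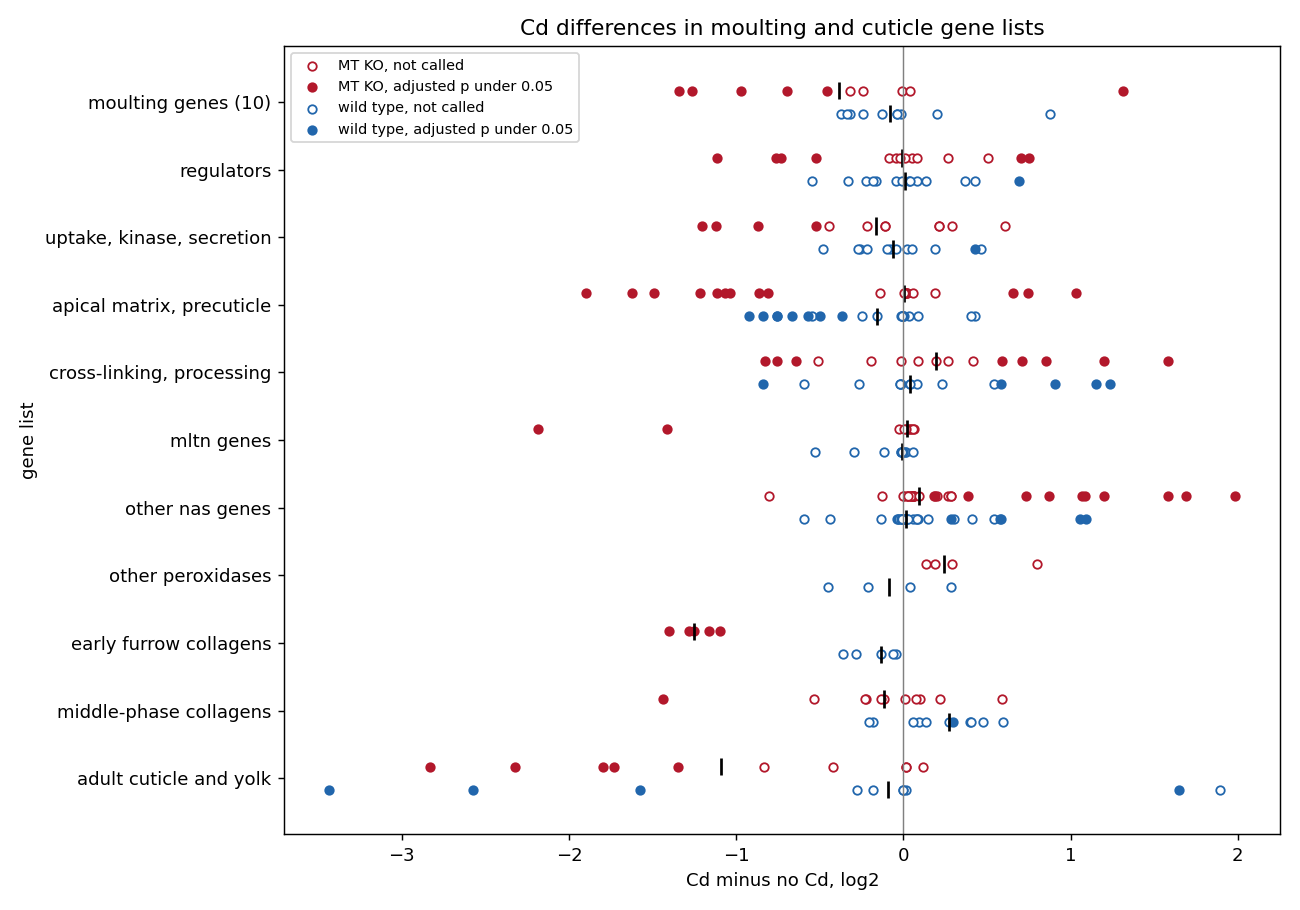
Cd minus no Cd on the log2 scale for every measured gene of the 10 moulting genes and of the 10 further lists, in MT KO (red, upper row) and wild type (blue, lower row). Filled points passed an adjusted p of 0.05 and black ticks are list medians; the 5 furrow collagens sit between -1.40 and -1.09 in MT KO and between -0.36 and -0.05 in wild type.

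Markers of several tissues were called changed with Cd in the same arrays. In whole animals, fewer cells of a type and less RNA per cell cannot be told apart. Of 8 measured epidermis and seam markers, where most moulting genes are made, 4 fell and none rose in MT KO; their summed level, as the log2 of summed linear values, was 10.16 to 10.36 for MT KO with Cd, 10.88 to 11.10 for wild type with Cd, 10.66 to 11.13 for MT KO without Cd and 10.98 to 11.12 for wild type without Cd. In the fit of the MT KO arrays alone 2 of these 8 fell. Limma called none of the 8 in wild type. There 2 of the 8 had an unadjusted p under 0.05, against 5267 of all 22548 probe sets. Of the 8, 3 also belong to other lists here, dpy-7, che-14 and elt-3. Of 8 pharynx markers 6 rose and 1, peb-1, fell in MT KO, and 5 rose in wild type; their summed level was 11.99 to 12.03, 11.43 to 11.58, 10.77 to 11.10 and 11.04 to 11.14 in the same order of groups. The count of 5 in wild type was 1 with the 3′ minus 5′ covariate and 3 without wild type without Cd replicate 2 or wild type with Cd replicate 2 or 3.

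Of 9 neuron markers 7 rose in MT KO and 3 in wild type, with a summed level of 11.997 to 12.09 in MT KO with Cd and 11.28 to 11.34 in MT KO without Cd. Of 9 sperm markers 8 fell in MT KO and none in wild type. Their summed level was 7.52 to 7.96 in MT KO with Cd and 10.39 to 10.98 in MT KO without Cd. In wild type it was 9.29 to 9.52 with Cd and 9.58 to 10.09 without Cd. Without Cd, 2 of the 9 were called higher in MT KO than in wild type, against 0.940% of all probe sets. Of 10 germline markers 3 fell in MT KO and 1 rose in wild type, and of 10 oocyte and embryo markers 1 rose in MT KO and 6 in wild type, where each count of 1 is near the share of all probe sets; the count of 6 was 3 with that covariate or without wild type without Cd replicate 2 or 3 or wild type with Cd replicate 1. Of 9 intestine markers 1 rose and 4 fell in MT KO, and 2 rose and 2 fell in wild type; of 8 body wall muscle markers 2 rose in MT KO and none in wild type. No marker is listed at 0, but spe-9, spe-38, unc-10 and hlh-1 lay below the median of all values in every group. The part of these tissue marker values in the values of the moulting genes was not tested.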

How the data were processed

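Total RNA of whole L4 larvae, 200 ng per sample per the labels' protocols, was amplified, labelled with biotin and hybridised to 12 one-colour arrays. The deposited values are log2 values per probe set; the submitters' processing notes name GCRMA (version not given in the sources used here), and the log2 scale was read from the values, 1.56 to 14.50. They were used as deposited. Of 22625 features, 77 controls were set aside. Of the rest, 20766 had 1 symbol, 887 several and 895 none; 20701 matched the RefSeq table of WBcel235, including all 10 genes, used for names, chromosomes and gene order.

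Group means of all 12 arrays were fitted with limma 3.58.1 in R 4.3.3 (8 residual degrees of freedom, prior 1.38), with two-sided tests of 5 differences adjusted by the Benjamini-Hochberg method; intervals are 95% intervals of that fit. The fit was tested on simulated data. The genes, lists and tests were chosen with earlier results of these data known. List genes named are those with the smallest adjusted p, up to 4 called per list, with others added where a count is explained. Alternatives were another variance prior, fewer arrays, 2 normalizations, a filter, array weights, the replicate block, the 3′ minus 5′ covariate, averaged probe sets and each array left out. For arrays, their number limits the precision. Sequences were not used here.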

Additional observations from a re-analysis of the deposited data

Results flagged for a closer look

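For 3 of the 10 moulting genes the Cd response differed between MT KO and wild type by the interaction test of limma, with values of -0.96 for mlt-11, -1.14 for noah-2 and 1.35 for mlt-7 on the log2 scale. The Cd difference was -1.34 in MT KO and -0.38 in wild type for mlt-11, -1.26 and -0.12 for noah-2, and 1.32 and -0.04 for mlt-7.

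Among the listed genes around them, 14 also differed in response by that test, which called 2.09% of all probe sets higher and 3.36% lower. None was called of 14 regulators, 12 uptake, kinase and secretion genes, 10 mltn genes, 4 other haem peroxidase genes and 11 middle-phase collagens. Lower were 4 of 5 furrow collagens, 3 of 21 matrix genes and 2 of 10 adult cuticle and yolk genes. Of 31 other astacin genes 4 were higher, and of 15 cuticle enzymes 1 was higher and 1 lower, with nas-6 in both lists. The furrow collagens dpy-2, dpy-3, dpy-7 and dpy-9 had interactions of -1.03, -1.04, -1.05 and -0.97, and the matrix genes lpr-1, lpr-3 and egg-6 had -0.87, -0.64 and -0.75. The adult collagen genes bli-1 and rol-1 had -1.54 and -2.48, and dpy-18 had -0.74. For bli-1 the Cd difference was -1.73 in MT KO and -0.18 in wild type. For rol-1 it was -0.83 in MT KO, not called, and 1.65 in wild type, called higher. The astacin genes nas-1, nas-9, nas-6 and nas-30 had interactions of 1.82, 0.89, 0.99 and 0.19, of which nas-30 lay below the median of all values in every group. For nas-1 the mean was 4.33 in MT KO with Cd, against 2.64 for MT KO without Cd, and it was 2.54 for wild type with Cd, against 2.68 for wild type without Cd; the last 3 lie below that median. Of these 14 calls, 7 were lost under some alternatives: lpr-3 in 8, nas-6, dpy-18 and rol-1 in 9 each, dpy-9 in 10 and bli-1 in 11 of 19, and nas-30 in 13 of 18.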

How the results depend on the processing

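Of 15 differences called for the 10 moulting genes over the 5 comparisons, 10 kept the call under each of up to 21 alternatives and 5 lost it in at least 1, as given with nas-37, noah-1, mlt-8 and mlt-7. Of 35 differences not called, 8 were called under at least 1 alternative. None changed sign while called. The number of the 10 called for Cd in wild type, 0 as reported, was 1 with a trended prior, with only the arrays compared, with median centring, array weights, the replicate block, the 3′ minus 5′ covariate or averaged probe sets, and 2 with dim probe sets left out; leaving out 1 array gave 0 to 1. Leaving out 1 array gave 4 to 8 called for MT KO minus wild type with Cd, and 2 to 4 for the interaction. Over all probe sets, 1770 were called for Cd in wild type with the 3′ minus 5′ covariate, against 2693. For MT KO minus wild type without Cd, 371 were called, against 23 with only the arrays compared and 593 with array weights, and for the interaction 1229, against 1869 with array weights. Leaving out 1 array gave 168 to 461 without Cd between the strains, 1155 to 2139 with Cd, and 823 to 1384 for the interaction. The fit with only the arrays compared cannot be made for the interaction. Median centring moved the split of calls for Cd in MT KO to 3786 higher and 2239 lower, against 2595 and 2472, for the interaction to 717 and 703, against 472 and 757, and for MT KO minus wild type without Cd to 202 and 228, against 212 and 159. It also turned the split for MT KO minus wild type with Cd, to 1131 and 1059, against 817 and 1113, and quantile normalization turned that for Cd in wild type, to 1264 and 1302, against 1453 and 1240. Deviations of same-numbered arrays showed little correlation (r from -0.20 to 0.24). With so few arrays per group, these values cannot tell whether same-numbered arrays shared a culture or batch. With the replicate block 6 moulting genes were called for Cd in MT KO. That fit called 5 for MT KO minus wild type with Cd and 2 for the interaction. Under the block the limma adjusted p was 0.0339 for mlt-11 with Cd in wild type, 0.082 for nas-37 between the strains with Cd and 0.0572 for the mlt-7 interaction. The cause of these changes was not tested.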
